A study of Homo sapiens with 24 samples.

Results

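The APOBEC3 cytidine deaminase genes are 7 neighbouring human genes, APOBEC3A, APOBEC3B, APOBEC3C, APOBEC3D, APOBEC3F, APOBEC3G and APOBEC3H. They were taken from the expression table by their gene symbols, and where a symbol had several rows, the row was to be chosen by the highest mean level, but each symbol had exactly 1 row, so that 7 rows stood for 7 of the 25161 symbols of the table. All 7 were read in each of 24 Clariom D arrays, a whole-transcriptome microarray, and none was left out by a filter. The arrays came from 2 established human B-lymphoma lines, SU-DHL-4 from a diffuse large B-cell lymphoma of the germinal centre type and DG-75 from a Burkitt lymphoma. Each line was kept for 72 h under DMSO, the solvent control, under 1 µM Entospletinib (Ento), an inhibitor of the spleen tyrosine kinase SYK, under 0.01 µM AZD5153 (AZD), a bivalent inhibitor of the bromodomain and extra-terminal (BET) proteins, or under both agents at these doses (Ento+AZD). This gave 8 groups of 3 arrays, and each tumour type was represented by 1 line, so that line and tumour type cannot be told apart. The labels number the replicates from 1 to 3 and do not say whether they were separate cultures. The study's methods give 3 or more biologically independent samples for its statistical data, without naming the arrays. The p-values measure the spread between these arrays, and how much of it is technical is not known.

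APOBEC3 enzymes remove the amino group of cytosine in single-stranded DNA and leave uracil behind. They are known as innate defences against retroviruses and mobile elements, and lymphoid cells are among the cells in which several of them are found. In tumours, some members are also known as a source of cytosine mutations. BET proteins bind acetylated histones and recruit the transcription machinery, and SYK carries the signal of the B-cell receptor.

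The values are log2 expression levels after robust multi-array average (RMA) normalization, a method that brings all arrays onto a common scale. A gene was called changed at a Benjamini-Hochberg adjusted p under 0.05 over all 25575 rows together with a fold change over 2, that is, a log2 fold change beyond 1 in size. The arrays carried the B-cell markers of both lines, for example CD79A between 11.2 and 12.4, with the exception of CR2, which stayed at or below 2.86. The T-cell markers CD2 and CD3G stayed at or below 2.61, and the mean of 6 T-cell markers lay between 2.90 and 3.38 in every array. The mean of 6 myeloid markers lay between 3.82 and 4.16. The mean of 7 B-cell markers was higher in DG-75 under AZD (8.03 to 8.08) and Ento+AZD (7.99 to 8.38) than under DMSO (7.44 to 7.81), and overlapped with DMSO in SU-DHL-4 (8.79 to 9.20 under AZD against 8.85 to 9.23). The T-cell mean was lower under Ento+AZD than under DMSO in DG-75 (2.90 to 2.97 against 2.997 to 3.32), and in SU-DHL-4 it was lower under Ento (2.94 to 3.08) and Ento+AZD (3.10 to 3.18) than under DMSO (3.18 to 3.38). The part of these shifts in the results was not tested. Array medians ran from 4.89 to 5.14, with the lowest in AZD replicate 1 of SU-DHL-4.

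APOBEC3C, APOBEC3D, APOBEC3F and APOBEC3G were the members that stood lower in the AZD-treated arrays, by 0.52 to 1.12 log2 units in each line with AZD alone or with Ento+AZD. Over both lines, APOBEC3A, APOBEC3B and APOBEC3H had smaller changes, although APOBEC3B stood 0.53 lower under AZD in DG-75. Ento alone gave no called change in any member. The RNA was taken from whole cultures, so that fewer cells expressing a gene and less RNA per cell cannot be told apart. The family was singled out with earlier results of these arrays known, in which APOBEC3C was already lower under AZD over both lines. The p-values of the comparisons with DMSO are therefore no independent support for the choice of these genes.

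**Figure D1:**
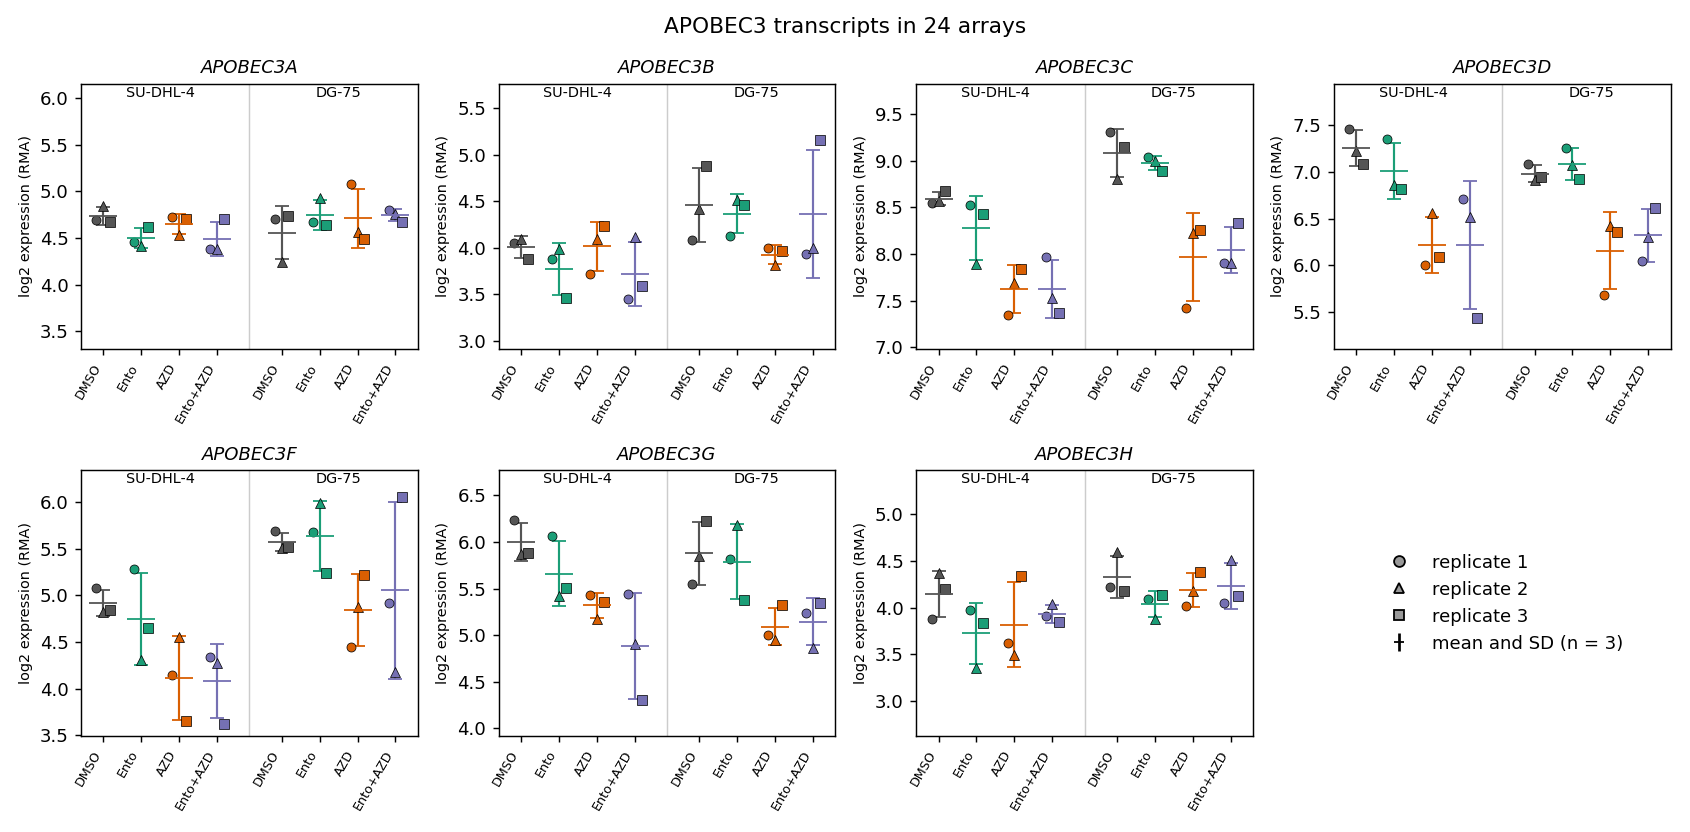
Log2 expression (RMA) of each APOBEC3 gene on the vertical axis in the 8 line-by-treatment groups, with 1 symbol per array and the mean and SD of 3 arrays as bars. In APOBEC3C and APOBEC3D, the AZD and Ento+AZD arrays of both lines lie below every DMSO array of the same line, whereas most treated groups of APOBEC3A, APOBEC3B and APOBEC3H overlap with DMSO.

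APOBEC3C encodes a deaminase with one catalytic domain. In SU-DHL-4 its level was 8.54, 8.57 and 8.67 in the DMSO arrays and 7.34, 7.69 and 7.84 in the AZD arrays. The Ento+AZD arrays of this line stood at 7.97, 7.52 and 7.37. Every array with AZD was below every DMSO array, and the AZD and Ento+AZD arrays overlapped. The Ento arrays held 8.53, 7.89 and 8.43, all just or clearly below the DMSO arrays.

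In DG-75, APOBEC3C was at 9.31, 8.80 and 9.15 under DMSO and at 7.42, 8.23 and 8.26 under AZD. The Ento+AZD arrays gave 7.90, 7.91 and 8.33. The groups with AZD again did not overlap with DMSO, although AZD replicate 1 lay well under its 2 companions. Under Ento, levels of 9.04, 9.0 and 8.89 lay within the DMSO range. Over the 8 groups, the order of the means ran from DG-75 DMSO (9.09 ± 0.26, SD, n = 3) over DG-75 Ento (8.98 ± 0.08) and SU-DHL-4 DMSO (8.59 ± 0.07) to SU-DHL-4 Ento+AZD (7.62 ± 0.31). The step from DG-75 Ento to SU-DHL-4 DMSO, 0.38 log2 units, was the only one between neighbours in this order that was larger than the SD of both groups.

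APOBEC3D, a deaminase with tandem domains that acts on retroviruses, had DMSO levels of 7.46, 7.23 and 7.08 in SU-DHL-4. AZD arrays of this line held 6.0, 6.56 and 6.09, and Ento+AZD arrays 6.71, 6.51 and 5.44. Both groups were fully below DMSO, and Ento+AZD replicate 3 was the lowest of all 24 arrays for this gene. In DG-75, the DMSO arrays were at 7.09, 6.91 and 6.95, the AZD arrays at 5.68, 6.42 and 6.36 and the Ento+AZD arrays at 6.05, 6.30 and 6.62. Here too, neither group with AZD overlapped with DMSO. The Ento arrays of SU-DHL-4 (7.36, 6.86 and 6.82) and DG-75 (7.26, 7.08 and 6.93) overlapped with DMSO. The 4 groups without AZD took the upper 4 places in the order of group means and the 4 groups with AZD the lower 4, and the gap between them, from 6.98 ± 0.09 in DG-75 DMSO to 6.32 ± 0.29 in DG-75 Ento+AZD, was the only step between neighbours that exceeded the SD of both groups.

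APOBEC3F, another antiretroviral deaminase with tandem domains, was at 5.08, 4.83 and 4.85 in the DMSO arrays of SU-DHL-4. It stood at 4.14, 4.56 and 3.65 under AZD and at 4.34, 4.28 and 3.62 under Ento+AZD. Both groups lay below every DMSO array. In DG-75, DMSO arrays of 5.69, 5.51 and 5.52 faced AZD arrays of 4.45, 4.88 and 5.22, without overlap, and Ento+AZD arrays of 4.92, 4.18 and 6.06, with overlap. Ento+AZD replicate 3 of DG-75 was the highest of the 24 arrays for APOBEC3F. In the order of group means, the step from SU-DHL-4 Ento (4.74 ± 0.50) to SU-DHL-4 AZD (4.12 ± 0.45) was the only one larger than the SD of both groups, and even these 2 groups overlapped. The Ento arrays of SU-DHL-4 (5.28, 4.30 and 4.65) and DG-75 (5.68, 6.0 and 5.24) overlapped with DMSO in both lines.

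APOBEC3G, known as the target of the HIV protein Vif, was at 6.24, 5.87 and 5.88 in the SU-DHL-4 arrays under DMSO. Its levels were 5.43, 5.17 and 5.35 under AZD and 5.44, 4.90 and 4.30 under Ento+AZD. All 6 arrays with AZD were below the DMSO arrays, and Ento+AZD replicate 3 was again the lowest. In DG-75 the levels were 5.55, 5.85 and 6.23 under DMSO, 5.00, 4.95 and 5.32 under AZD and 5.23, 4.86 and 5.34 under Ento+AZD, again without overlap. The Ento arrays of SU-DHL-4 (6.06, 5.42 and 5.50) and DG-75 (5.81, 6.18 and 5.37) overlapped with DMSO. As for APOBEC3D, the 4 groups without AZD held the upper 4 places of the group means, but no step between neighbouring groups was larger than the SD of both.

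Ento+AZD replicate 3 of SU-DHL-4 was thus the lowest array of its group for APOBEC3C, APOBEC3D, APOBEC3F and APOBEC3G alike, and Ento+AZD replicate 3 of DG-75 the highest of its group for the same 4 genes. The SD of these 2 groups was widest for APOBEC3D in SU-DHL-4 (0.69) and for APOBEC3F in DG-75 (0.95). For APOBEC3C, APOBEC3F and APOBEC3G in SU-DHL-4 it was 0.31, 0.40 and 0.57. In DG-75 it was 0.25, 0.29 and 0.25 for APOBEC3C, APOBEC3D and APOBEC3G, where DMSO had 0.26, 0.09 and 0.34.

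The other 3 members had lower means over the 24 arrays and narrower ranges. APOBEC3F also came down to such values in SU-DHL-4, with group means of 4.12 under AZD and 4.08 under Ento+AZD. No background or detection value per row was used here. Whether a low value, also one of APOBEC3F, stands for a transcript that is present is therefore not known. APOBEC3A, a deaminase best known from myeloid cells, ran from 4.24 to 5.08 over the 24 arrays, and each of its 8 group means lay between 4.49 and 4.75. APOBEC3B, a nuclear enzyme often linked to mutations in tumours, ran from 3.45 to 5.15. Its highest array was again Ento+AZD replicate 3 of DG-75. In DG-75 its AZD arrays (4.0, 3.81 and 3.97) lay just under the DMSO arrays (4.08, 4.41 and 4.88). APOBEC3H, a single-domain enzyme whose activity differs between human haplotypes, ran from 3.35 to 4.59. For these 3 genes, all neighbouring groups in the order of means overlapped and differed by less than the larger SD.

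In the comparison of AZD with DMSO, which asks for the response to BET inhibition alone, 0 of 7 members were called in SU-DHL-4, where 0.18% of all rows were called, and 0 of 7 in DG-75, where the share was also 0.18%. At an unadjusted p under 0.05, the limma fit held 4 members in each line, as did 11.5% of the rows in the first line and 13.8% in the second. For SU-DHL-4 these were APOBEC3C (log2 fold change -0.97, SE 0.207, adjusted p = 0.0992), APOBEC3D (-1.04, SE 0.237, adjusted p = 0.109), APOBEC3F (-0.80, SE 0.233, adjusted p = 0.211) and APOBEC3G (-0.68, SE 0.188, adjusted p = 0.19). For DG-75 they were APOBEC3C (-1.12, SE 0.222, adjusted p = 0.0674), APOBEC3D (-0.83, SE 0.207, adjusted p = 0.107), APOBEC3G (-0.78, SE 0.236, adjusted p = 0.155) and APOBEC3B (-0.53, SE 0.227, adjusted p = 0.326). All 8 of these changes went the same way in 3 of 3 same-numbered array pairs. Any pairing would give this, since the AZD arrays did not overlap with DMSO. APOBEC3F in DG-75 had a change of -0.73, with a 95% interval from -1.54 to 0.09. The 7 members had a median change of -0.68 (SU-DHL-4) and -0.73 (DG-75), against -0.08 and -0.06 for all rows.

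Under Ento+AZD, 2 of 7 members were called in SU-DHL-4 against 1.19% of all rows, and 1 of 7 in DG-75 against 0.833%. In SU-DHL-4, APOBEC3G fell by 1.12 (SE 0.188, limma adjusted p = 0.0119), a fold change of 2.17, and APOBEC3D fell by 1.04 (SE 0.237, adjusted p = 0.0415). APOBEC3C in this line had an adjusted p of 0.0306 at a change of -0.97, a fold change of 1.96 that missed the minimum. In DG-75 the called gene was APOBEC3C, which fell by 1.04 (SE 0.222, adjusted p = 0.0378). All 3 called changes went the same way in 3 of 3 same-numbered pairs. Any pairing would give this, since the treated arrays did not overlap with DMSO. APOBEC3F had -0.84 in SU-DHL-4 (adjusted p = 0.0924) and -0.52 in DG-75 (95% interval from -1.34 to 0.30), and APOBEC3D and APOBEC3G had -0.66 and -0.73 in DG-75 (adjusted p = 0.134 and 0.146). The 7 members had a median change of -0.84 (SU-DHL-4) and -0.52 (DG-75), against -0.08 and -0.07 for all rows.

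The 3 calls rested on few arrays. APOBEC3G in SU-DHL-4 was no longer called without DMSO replicate 2 (adjusted p = 0.0784), DMSO replicate 3 (0.0627) or Ento+AZD replicate 3 (0.0506, log2 fold change -0.87). APOBEC3D in SU-DHL-4 was called in 0 of 6 fits that left out 1 array, with -0.73 and an adjusted p of 0.2 without Ento+AZD replicate 3. APOBEC3C in DG-75 was likewise called in 0 of 6, with adjusted p between 0.06 and 0.247. The adjusted p of APOBEC3D was 0.146 and that of APOBEC3G in SU-DHL-4 was 0.0861 when the replicate number was left out of the model.

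**Figure D2:**
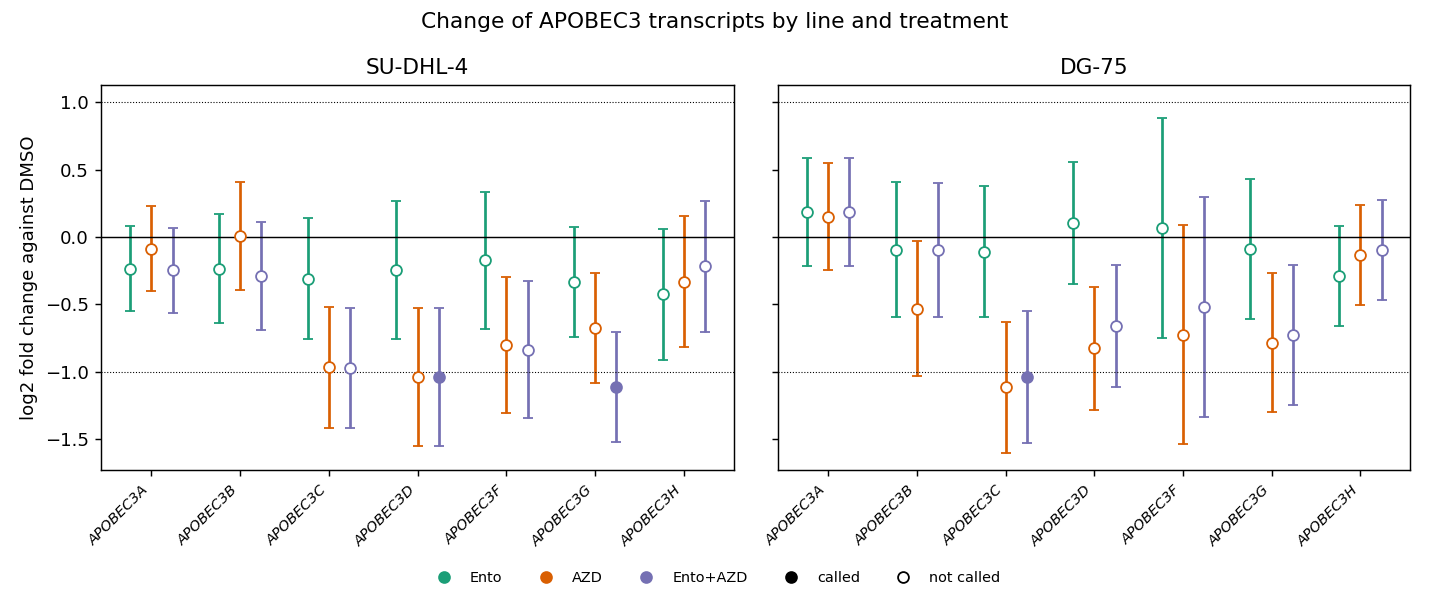
Log2 fold change against DMSO of each APOBEC3 gene in SU-DHL-4 and DG-75 under Ento, AZD and Ento+AZD, from the limma fit of each line, with 95% intervals. Filled points are called genes, and the dotted lines mark a fold change of 2. APOBEC3C, APOBEC3D, APOBEC3F and APOBEC3G lie between -0.52 and -1.12 under AZD and Ento+AZD in both lines.

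For Ento against DMSO, the question was the response to SYK inhibition alone. 0 of 7 members were called in SU-DHL-4 (0.0508% of all rows) and 0 of 7 in DG-75 (0.00391%), and 0 of 7 had an unadjusted p under 0.05 in either line, against 8.59% and 2.81% of the rows. The changes in SU-DHL-4 lay between -0.43 (APOBEC3H) and -0.17 (APOBEC3F), all below 0, where the median of all rows was -0.06. In DG-75 they ran from -0.29 for APOBEC3H to 0.19 for APOBEC3A. The 95% interval of APOBEC3C in SU-DHL-4 reached from -0.76 to 0.14, and the DG-75 interval from -0.60 to 0.38. That of APOBEC3D reached from -0.76 to 0.27 and from -0.35 to 0.56. The intervals of APOBEC3G went down to -0.74 and -0.61, and those of APOBEC3F to -0.68 and -0.75.

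The arrays without overlap give the same data without a model. In SU-DHL-4, 4 of 7 members had every AZD array below every DMSO array, as did 12.9% of all rows, and 4 of 7 had this under Ento+AZD, as did 16% of all rows. In DG-75, it was 5 of 7 under AZD (14.6% of rows) and 3 of 7 under Ento+AZD (14%). Under Ento it was 2 of 7 in SU-DHL-4 (9.33%), APOBEC3A and APOBEC3C, and 1 of 7 in DG-75 (3.56%), APOBEC3H. No member had every treated array above every DMSO array in any of the 6 comparisons, an arrangement that 4.05%, 2.82% and 4.84% of the rows had in SU-DHL-4 under Ento, AZD and Ento+AZD, and 3.09%, 4.5% and 4.79% in DG-75.

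The fit with both lines together takes 6 arrays per treatment and a term for the line. For AZD, more members reached an adjusted p under 0.05 in it than in either line alone. For Ento+AZD, they were the same as in SU-DHL-4 alone, APOBEC3C, APOBEC3D and APOBEC3G. Under AZD, APOBEC3C had a log2 fold change of -1.04 (SE 0.153), which is given as a description since it was known when the family was chosen. APOBEC3C was the only called member, where 0.254% of all rows were called. APOBEC3D fell by 0.94 (SE 0.162, limma adjusted p = 0.00302) and APOBEC3G fell by 0.73 (SE 0.158, adjusted p = 0.0102), both by less than the minimum fold change. At an adjusted p under 0.05 alone, 3 of 7 members stood beside 4.66% of all rows. APOBEC3F had -0.76 (SE 0.224) with an adjusted p of 0.0541. APOBEC3C, APOBEC3D, APOBEC3F and APOBEC3G were each lower in 6 of 6 same-numbered pairs, as any pairing within a line would give. The changes of APOBEC3A (0.03), APOBEC3B (-0.26) and APOBEC3H (-0.23) had 95% intervals that took in 0.

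Under Ento+AZD over both lines, APOBEC3C fell by 1.01 (SE 0.153, adjusted p = 0.000218) and was called, beside 0.856% of all rows. APOBEC3G fell by 0.92 (SE 0.158, adjusted p = 0.000671) and APOBEC3D fell by 0.85 (SE 0.162, adjusted p = 0.0017). These 3 made 3 of 7 members at an adjusted p under 0.05, against 8.49% of all rows. They were lower in 6 of 6 pairs, as any pairing within a line would give. APOBEC3F had -0.68 (adjusted p = 0.0652) and was lower in 5 of 6 pairs. Both comparisons share the same 6 DMSO arrays, so that their values are no separate measurements of the control. The adjusted p of APOBEC3D and APOBEC3G stayed under 0.05 in all 12 fits that each left out 1 array, in both comparisons, with a highest value of 0.0389 for APOBEC3G under AZD. That of APOBEC3C under Ento+AZD did so too, with a highest value of 0.00124. Whether APOBEC3C was called turned on the fold change minimum: under AZD its change was -0.96 when DMSO replicate 1 of DG-75 was left out, -0.91 when AZD replicate 1 of DG-75 and -0.97 when AZD replicate 1 of SU-DHL-4 was left out, all 3 times below the minimum. Under Ento+AZD it dropped out of the calls in 6 of 12 such fits, when DMSO replicate 1 (-0.92), Ento+AZD replicate 1 (-0.99) or Ento+AZD replicate 2 (-0.97) of DG-75, or DMSO replicate 2 (-0.98), DMSO replicate 3 (-0.999) or Ento+AZD replicate 3 (-0.94) of SU-DHL-4 was left out. Under Ento over both lines, 0 of 7 members were called (0.00782% of all rows), and APOBEC3H had the one unadjusted p under 0.05 among the members, beside 6.36% of the rows (-0.36, SE 0.138, adjusted p = 0.698).

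The effect of adding AZD to Ento and of adding Ento to AZD was compared next. For Ento+AZD against Ento, 0 of 7 members were called in SU-DHL-4 (0.0821% of all rows) and 0 of 7 in DG-75 (0.657%), with 4 and 3 members at an unadjusted p under 0.05, beside 9.67% and 14.8% of the rows. In SU-DHL-4, APOBEC3C differed by -0.66, APOBEC3D by -0.79, APOBEC3F by -0.66 and APOBEC3G by -0.78, with limma adjusted p between 0.131 and 0.334. In DG-75, APOBEC3C differed by -0.93 (adjusted p = 0.0672), APOBEC3D by -0.77 (0.0973) and APOBEC3G by -0.64 (0.221). APOBEC3C was called here in 1 of 6 fits that left out an array, without Ento replicate 3 (-1.08, adjusted p = 0.0462).

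For Ento+AZD against AZD, 0 of 7 members were called in SU-DHL-4 (0.0274% of all rows) and 0 of 7 in DG-75 (0% of all rows). APOBEC3C and APOBEC3D differed by 0.00 in SU-DHL-4, with 95% intervals from -0.45 to 0.44 and from -0.51 to 0.52. APOBEC3G was 0.44 lower with the combination in SU-DHL-4 (95% interval from -0.85 to -0.03, limma adjusted p = 0.664), the only member at an unadjusted p under 0.05 in either line, where 7.03% and 4.03% of the rows had one. In DG-75, the 7 differences lay between 0.04 and 0.44, the largest for APOBEC3B, and all 7 intervals took in 0.

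The departure of Ento+AZD from what the changes under Ento and AZD add up to was not called for any member in either line, nor for any row of the table, and 0 of 7 members had an unadjusted p under 0.05, against 4.99% and 2.63% of the rows (called rows 0%). For APOBEC3G the departure was -0.10 in SU-DHL-4 (95% interval from -0.68 to 0.48) and 0.14 in DG-75 (from -0.59 to 0.88). For APOBEC3C it was 0.31 (from -0.33 to 0.94) and 0.19 (from -0.50 to 0.88). The widest interval was that of APOBEC3F in DG-75, from -1.02 to 1.30.

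The response of the 2 lines was compared by the difference between their changes, SU-DHL-4 minus DG-75. 0 of 7 members were called for AZD (0% of all rows), for Ento+AZD (0.0352%) or for Ento (0.00782%), and 0 of 7 had an unadjusted p under 0.05 in each, where 6.16%, 6.51% and 4.43% of the rows had one. For AZD the difference was 0.15 for APOBEC3C (95% interval from -0.52 to 0.82), -0.21 for APOBEC3D (from -0.92 to 0.49), -0.08 for APOBEC3F (from -1.08 to 0.93) and 0.11 for APOBEC3G (from -0.55 to 0.77). For Ento+AZD it was 0.07 for APOBEC3C and -0.39 for APOBEC3G, with intervals from -0.60 to 0.74 and from -1.05 to 0.28. The calls of APOBEC3D and APOBEC3G in one line and of APOBEC3C in the other therefore do not show a difference between the lines.

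Under DMSO, 0 of 7 members were called between SU-DHL-4 and DG-75, where 7.2% of all rows were called. APOBEC3C had the one unadjusted p under 0.05 among the members, which 27.6% of all rows had, with a level 0.49 lower in SU-DHL-4 (95% interval from -0.95 to -0.04, limma adjusted p = 0.14), and the DMSO arrays of the lines did not overlap for this gene. APOBEC3F was 0.65 lower in SU-DHL-4 (95% interval from -1.37 to 0.06) and its DMSO arrays did not overlap either. These 2 of 7 members stood beside 17.2% of all rows with every SU-DHL-4 array below every DG-75 array, and 0 members beside 16.1% with the opposite arrangement. The other 5 members differed by between -0.45 for APOBEC3B and 0.27 for APOBEC3D, with intervals that took in 0.

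The 4 members with lower levels under AZD lie side by side. In the RefSeq gene table of assembly GRCh38.p14, the order on chromosome 22 is APOBEC3A, APOBEC3B, APOBEC3C, APOBEC3D, APOBEC3F, APOBEC3G and APOBEC3H, with 0 other protein-coding genes in between. The 7 genes before the cluster (TOMM22, JOSD1, GTPBP1, SUN2, DNAL4, NPTXR and CBX6) and the 3 after it (CBX7, PDGFB and RPL3) served for comparison. None of these 10 was called, or had an adjusted p under 0.05, in any comparison of treatments. Of all rows, 1.19% or fewer were called in each. Over both lines under AZD, their changes lay between -0.39 for JOSD1 (limma adjusted p = 0.0534) and 0.03 for CBX7, with a median of -0.02, against a median of -0.73 for the APOBEC3 genes. Under Ento+AZD they ran from -0.24 for CBX7 to 0.08 for PDGFB. The genes at both ends of the cluster itself, APOBEC3A and APOBEC3H, changed by 0.03 and -0.23 under AZD and by -0.03 and -0.16 under Ento+AZD.

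**Figure D3:**
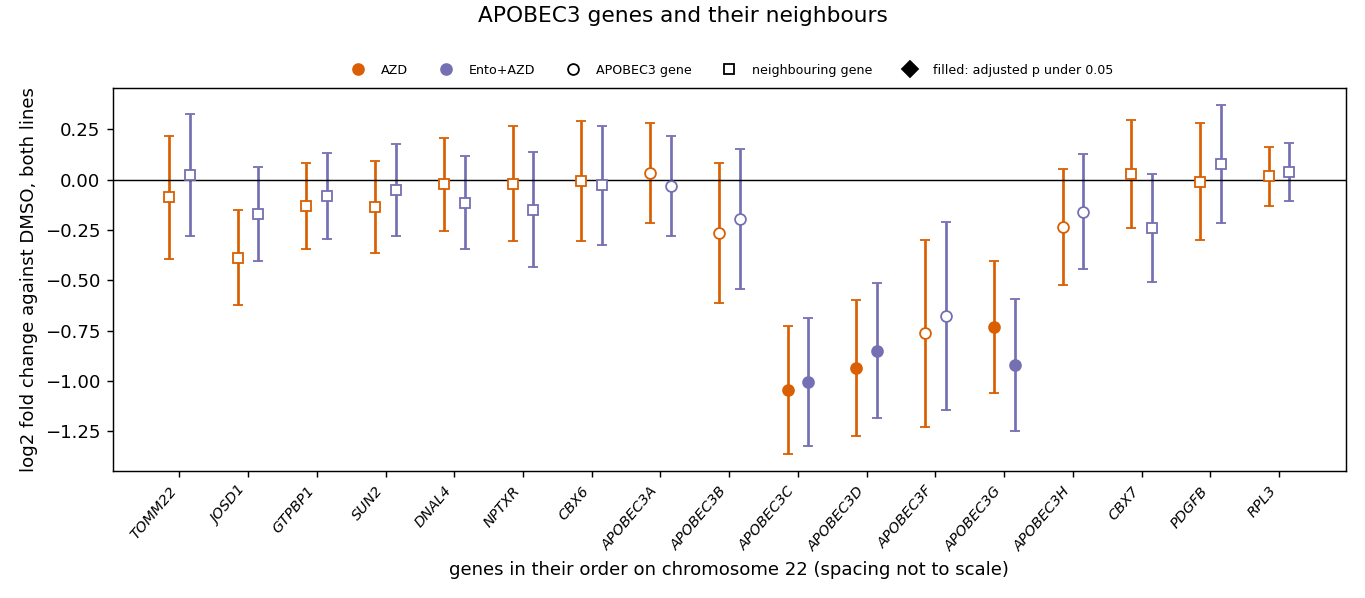
Log2 fold change against DMSO over both lines, from the fit of 24 arrays, with 95% intervals, for the APOBEC3 genes (circles) and 10 neighbouring genes (squares) in their order on chromosome 22. Filled symbols have an adjusted p under 0.05. The 4 consecutive genes from APOBEC3C to APOBEC3G lie between -0.68 and -1.04, and the neighbouring genes between -0.39 and 0.08.

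Across the 24 arrays, after the mean of each line was subtracted, the levels of these 4 genes ran together. Pearson's r was 0.90 between APOBEC3C and APOBEC3D, 0.83 between APOBEC3D and APOBEC3F, 0.82 between APOBEC3D and APOBEC3G, 0.80 between APOBEC3C and APOBEC3G, 0.78 between APOBEC3F and APOBEC3G and 0.77 between APOBEC3C and APOBEC3F. The highest r of any pair with APOBEC3A, APOBEC3B or APOBEC3H was 0.44, between APOBEC3B and APOBEC3F. These are descriptions over arrays that share treatments and, within an array, RNA and hybridisation. With the mean of each of the 8 groups subtracted, which takes out the treatments, r was still 0.67 between APOBEC3C and APOBEC3D and between APOBEC3D and APOBEC3F, and lay between 0.41 and 0.60 for the other 4 pairs. The lowest of these, 0.409 between APOBEC3C and APOBEC3G, was then hardly above the 0.408 between APOBEC3B and APOBEC3F. The APOBEC3 genes are close copies of each other, and the table does not show which probes make up a row, so that probes reading several copies could add to the likeness of the rows. Their part in these values was not tested, and the values of single rows are uncertain to that extent.

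**Figure D4:**
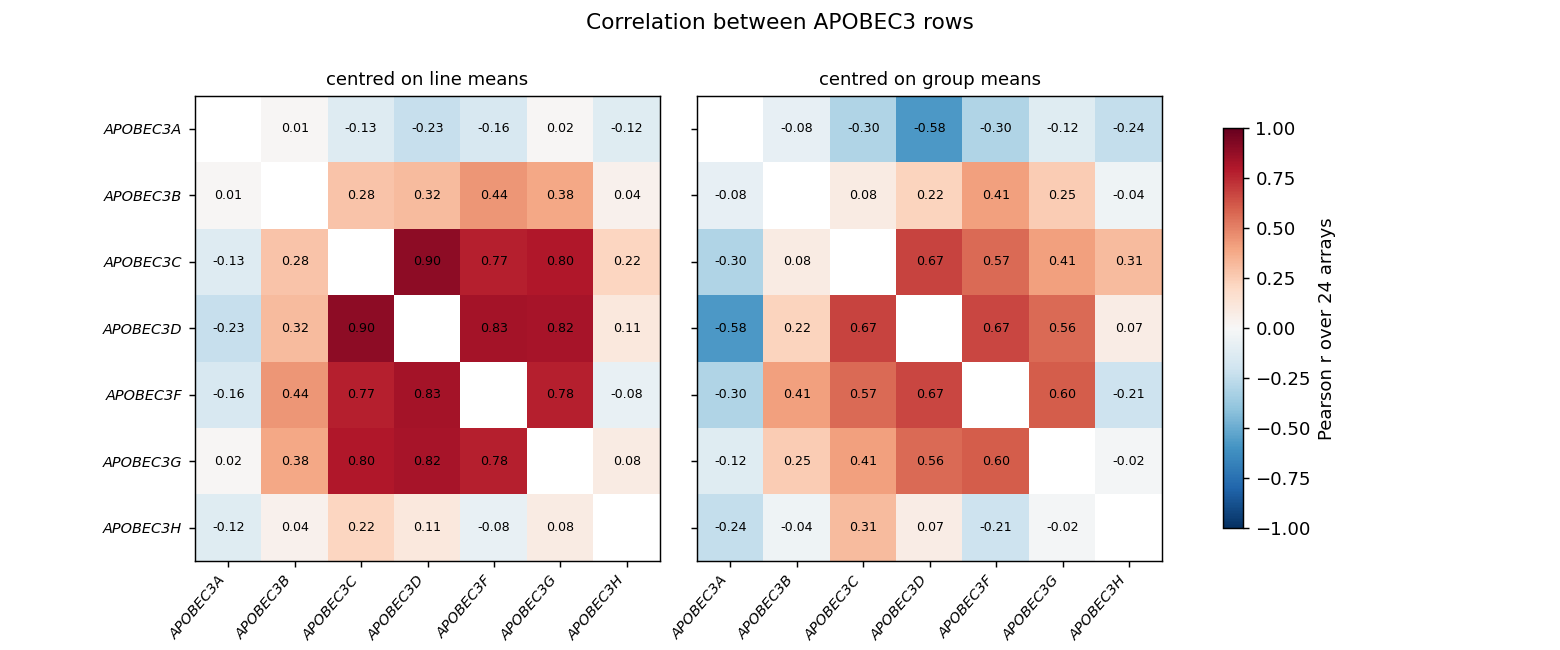
Pearson's r between the levels of each pair of APOBEC3 genes over 24 arrays, after subtraction of line means (left) and of the means of the 8 groups (right). The block of APOBEC3C, APOBEC3D, APOBEC3F and APOBEC3G holds values from 0.77 to 0.90 on the left and from 0.41 to 0.67 on the right. Outside the block, APOBEC3B and APOBEC3F have the highest value, 0.44 on the left and 0.41 on the right.

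The rows of other symbols most like each member were ranked by the same line-centred r over 24 arrays. For APOBEC3C they were MLLT11 (0.937), XRCC4 (0.935) and UBE2E1 (0.933), for APOBEC3D CCDC7 (0.891), STAMBPL1 (0.889) and NFIB (0.884), for APOBEC3F ZFP82 (0.886), PIGP (0.882) and BCL2A1 (0.88), and for APOBEC3G ACOT13 (0.895), BCL2A1 (0.887) and TRIP10 (0.863). BCL2A1, an anti-apoptotic BCL2 family gene, was among the nearest 3 for both APOBEC3F and APOBEC3G. For APOBEC3A, APOBEC3B and APOBEC3H the highest values were lower, with MNDA (0.777), CBY2 (0.723) and MRGPRF (0.719) for APOBEC3A, RFPL4AL1 (0.708), MLYCD (0.707) and HBEGF (0.681) for APOBEC3B, and ST8SIA2 (0.758), TCEAL2 (0.746) and NR2E3 (0.743) for APOBEC3H.

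Of 12 other genes of the deaminase families, among them enzymes that edit RNA or process free nucleotides, 11 were in the table. None was called in a comparison of treatments, where 1.19% of all rows or fewer were called. Over both lines, DCTD, the dCMP deaminase of nucleotide metabolism, fell by 0.57 under AZD (limma adjusted p = 0.0145) and by 0.58 under Ento+AZD (adjusted p = 0.0071), each in 6 of 6 pairs. The Ento+AZD change of DCTD was -0.96 for SU-DHL-4 (adjusted p = 0.00779) and -0.20 for DG-75 (adjusted p = 0.591), and the difference of -0.77 between the lines had a limma adjusted p of 0.27. Under Ento alone DCTD had -0.53 in SU-DHL-4 (adjusted p = 0.364). CDADC1 fell by 0.39 (adjusted p = 0.0481) and by 0.50 (adjusted p = 0.00559). The median change of these 11 genes was -0.20 under AZD and -0.13 under Ento+AZD, against -0.73 and -0.68 for the APOBEC3 genes. Between the lines under DMSO, ADARB1, an RNA-editing enzyme, was called lower in SU-DHL-4 (-1.48), where 7.2% of all rows were called.

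The uracil that an APOBEC3 enzyme leaves in DNA is removed or passed on by repair genes, and 22 of these were measured. Over both lines, 9 were lower and 0 higher at an adjusted p under 0.05 under AZD, and 12 were lower and 1 higher (HMCES) under Ento+AZD. Of all rows, 4.29% were lower and 0.371% higher at this threshold under AZD, and 7.03% and 1.46% under Ento+AZD. The called gene in both was EXO1, an exonuclease of mismatch repair, which fell by 1.11 under AZD (SE 0.269, limma adjusted p = 0.0193) and by 1.71 under Ento+AZD (SE 0.269, adjusted p = 0.000311). EXO1 was also called in both single lines under Ento+AZD, with -1.88 for SU-DHL-4 and -1.53 for DG-75, and against Ento in DG-75 (-1.34). UNG, the main uracil-DNA glycosylase, fell by 0.90 under Ento+AZD over both lines (adjusted p = 0.0181). Medians over the 22 genes were -0.31 and -0.41. Between the lines under DMSO, EXO1 (-2.15) and UNG (-1.13) were called lower in SU-DHL-4, where 7.2% of all rows were called.

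Among 18 other genes that restrict viruses, most of them induced by interferon, 0 were called under AZD in either line or over both. Of all rows, 0.18% were called in each line and 0.254% over both, so that 0 of 18 is near the share of all rows. OAS1, a sensor of double-stranded RNA, was called higher in DG-75 given Ento+AZD (1.49, SE 0.343, limma adjusted p = 0.0493), where 0.833% of all rows were called. The median of the list over both lines was -0.23 under AZD and 0.06 under Ento+AZD, where the median of the APOBEC3 genes was -0.68. Between the lines under DMSO, TRIM22 (1.04) and OAS1 (1.27) were called higher in SU-DHL-4, and IFITM1 (-1.90) and SERINC5 (-1.29) lower. Of all rows, 7.2% were called there.

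Of 21 transcription factors and regulators linked to interferon, NF-κB and cell cycle control, LIN9, a subunit of the DREAM complex, was called lower over both lines under AZD (-1.02, adjusted p = 0.00697) and Ento+AZD (-1.04, adjusted p = 0.00225), and in DG-75 under Ento+AZD (-1.13). FOXM1, a factor of the late cell cycle, was called lower in SU-DHL-4 given Ento+AZD (-1.57, adjusted p = 0.00963) and over both lines (-1.26, adjusted p = 7.5e-05). The median of this list was -0.17 under AZD and 0.02 under Ento+AZD over both lines. Between the lines under DMSO, REL (1.33) was called higher in SU-DHL-4, and NFKB2 (-1.16) and IRF4 (-2.24) lower, where 7.2% of all rows were called.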

How the data were processed

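The deposited table holds log2 expression values of 24 Clariom D arrays, which the authors made by RMA with limma. For the step from probes to genes, the authors used affycoretools with an annotation package of this array. The genome build and versions behind the array values are not given in the sources used here. Gene order was taken from assembly GRCh38.p14, and no coordinates are printed. Every per-sample column was matched to a sample by its name (0 columns unused). Differential expression was computed from these values with limma 3.58.1 in R 4.3.3 (lmFit, contrasts.fit, eBayes), with Benjamini-Hochberg adjustment over 25575 rows. The fit of each line took 12 arrays, with terms for treatment and replicate number. The study's model names a batch term without saying what the batch was. The fits over both lines took treatment, line and replicate number within line. Differences between lines came from 1 fit of 8 groups with replicate number within line, and the comparison of lines under DMSO from the same groups without it. Intervals are 95% intervals of the fit, and the number of arrays limits the precision. The script was tested on simulated data. The 7 members, the other gene lists and the rule for naming genes (all members, called genes of the lists, and the 3 symbols most like each member) were chosen with earlier results of these data known. Genes named outside this rule (adjusted p under 0.05 without the minimum fold change, and JOSD1, HMCES, CBX7 and PDGFB) were picked after their values were seen. Alternatives covered normalization, the replicate term, the arrays fitted, dim rows, the variance prior, the fold change minimum, rows per symbol and each array left out. Some genes of related function are not reported here.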

Additional observations from a re-analysis of the deposited data

How the results depend on the processing

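Each comparison was repeated under other settings, with the number of called APOBEC3 genes as its result. For Ento+AZD in SU-DHL-4 (2 as reported), 0 were called with no replicate block, 1 (APOBEC3G) after quantile normalization and 0 after subtraction of array medians. Without a fold change minimum, 3 were called there (APOBEC3C, APOBEC3D and APOBEC3G). For Ento+AZD in DG-75 (1), 0 were called after quantile normalization and 0 after subtraction of array medians. For AZD over both lines and for Ento+AZD over both lines (1 each), 0 were called under each of these 2 normalizations, and 3 (APOBEC3C, APOBEC3D and APOBEC3G) without a fold change minimum. For AZD in DG-75 (0), 1 (APOBEC3C) was called in 1 fit of all 24 arrays, 1 with rows under the median left out and 1 with a trended, robust variance prior. That prior also gave 1 (APOBEC3D) for AZD in SU-DHL-4 (0).

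With each array left out in turn, the counts ranged from 0 to 2 for Ento+AZD in SU-DHL-4, from 0 to 0 for Ento+AZD in DG-75, from 0 to 2 for AZD over both lines, from 0 to 1 for Ento+AZD over both lines and, in DG-75, from 0 to 1 for Ento+AZD against Ento. AZD over both lines reached 2 (APOBEC3C and APOBEC3D) without SU-DHL-4 AZD replicate 2. Without DG-75 DMSO replicate 1, APOBEC3G (-1.01) was called in place of APOBEC3C for Ento+AZD over both lines. The other comparisons kept a count of 0 in every setting.

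Of 33 gene changes with an unadjusted p under 0.05, 0 of 508 refits changed sign. Of the 100 others, 138 of 1592 refits did, in 54 changes, and none of these was called. Subtraction of array medians moved the median change of all rows in SU-DHL-4 under Ento+AZD from -0.08 to 0.05, while APOBEC3G went from -1.12 to -0.99 and APOBEC3D from -1.04 to -0.91. With it the share of higher genes among the calls went from 8.55% to 21.9% in SU-DHL-4 and from 15% to 34.5% in DG-75, and with quantile normalization to 19.4% and 32.9%.

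Arrays of the same replicate number were not shown to be pairs. Their deviations from the group means correlated on average by 0.0281, 0.174 and 0.212 for numbers 1 to 3 in SU-DHL-4 (single pairs from -0.11 to 0.39) and by -0.0147 to 0.0464 in DG-75 (from -0.36 to 0.34). With no replicate block, the number called moved only for Ento+AZD in SU-DHL-4. A replicate block shared by both lines, chosen after seeing the data, left APOBEC3C as the called gene under AZD and under Ento+AZD (adjusted p = 0.000613) over both lines, and 0 members for Ento and between the lines under DMSO. Signal over background was not available per row in the values used, which limits what can be said of low rows.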
